A study of Mus musculus with 14 samples.

Results

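The comparison described here is of mouse liver 48 h after partial hepatectomy, an operation that takes out part of the organ, with normal mouse liver. Its members were chosen by the sample titles alone: the 2 arrays of the 48 h group and the 2 arrays of normal liver, 4 of the 14 arrays of the series. The other arrays are pairs at 4, 8, 12, 36 and 72 h, of which only the 36 h and 72 h pairs are tested against 48 h below. Each array measured biotin-labelled total RNA of whole liver, and per the series design the livers of 4 to 6 mice went into each RNA extraction. Neither the strain, sex and age of the mice nor the extent of the resection is given in the labels, and they call the control normal liver without saying whether a sham operation was done. Separate pools behind replicate arrays are not stated either, so p-values here reflect only the scatter between replicate arrays, which may be technical. That scatter was estimated from all 14 arrays of the series and not from these 4 alone. In RNA of whole liver, fewer cells of a type and less RNA per cell cannot be told apart.

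After partial hepatectomy the remaining hepatocytes, which are quiescent in the normal organ, enter the cell cycle more or less together, copy their DNA and then divide. The cycle runs on cyclins and cyclin-dependent kinases: D-type and E-type cyclins carry cells out of G1, the MCM helicase is loaded on replication origins before S phase, and cyclin A and B with Cdk1 drive mitosis. The anaphase-promoting complex then marks securin and cyclin B for destruction so that chromosomes separate. Throughout this growth the liver goes on making plasma proteins, bile acids, lipids and urea.

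Values are intensities on a linear scale, 1 for each probe set, a group of oligonucleotides that measures a transcript. The background of an array, the 95th percentile of its bacterial control probe sets, was 72.59 and 43.56 in the normal arrays (replicates 1 and 2) and 104.1 and 66.02 at 48 h. The median intensity was 185.9 and 127.8 in normal liver and 233.1 and 163.9 at 48 h, the highest of the 14 being that of 48 h replicate 1. The brightest probe set of that array reached 32970, against 58210 in 48 h replicate 2 and 57610 and 81010 in normal liver. Replicate arrays correlated at 0.952 in normal liver and 0.942 at 48 h across the probe sets tested, which are not independent replicates. All 14 measured hepatocyte markers, among them albumin (Alb) and the urea cycle enzyme Cps1, were above background in all 4 arrays. The number of arrays limits the precision of every value.

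At 48 h the liver carried far more RNA of genes of chromosome segregation and cell division, and of a few acute-phase proteins, than normal liver, and less RNA of a set of metabolic and regulatory genes. Of 13576 probe sets tested, 315 (2.32%) passed an adjusted p of 0.05 in the limma fit, 222 of them higher at 48 h (1.64%) and 93 lower (0.685%). They belong to 169 and 73 named genes. The falls depended more on the fit than the rises. With only the 4 arrays compared 81 probe sets passed higher and 11 lower, and with array weights 138 and 30. Changes are differences of log2(intensity + 57), 48 h minus normal liver, with the standard error (SE) of the fit and 2 arrays against 2. The count fell to 134 when 48 h replicate 1 was left out and to 114 without normal replicate 2. The median change over all probe sets was 0.12, and -0.00 after quantile normalization, so small list medians are to be read against that shift. Over all probe sets, both 48 h arrays were above both normal arrays in 22.9% and below both in 16.3%.

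**Figure D1:**
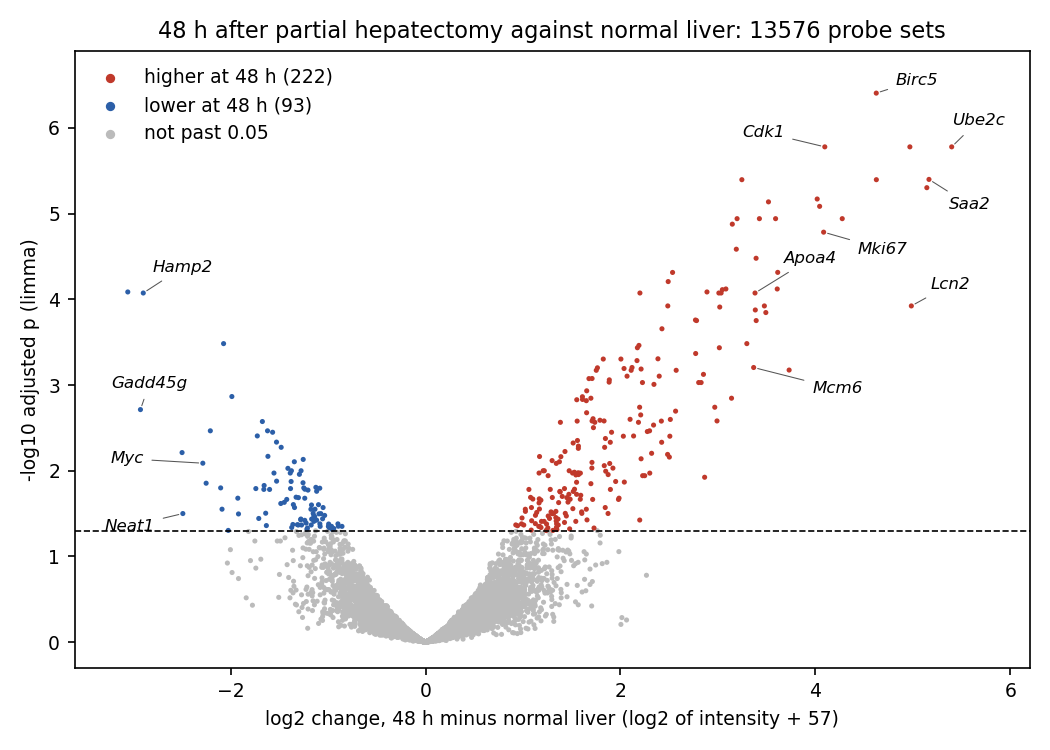
Change of each of the 13576 tested probe sets (x axis, log2 units, 48 h minus normal liver) against -log10 of its limma adjusted p (y axis), with the dashed line at 0.05. The 222 probe sets that passed upward (red) reach 5.40 for Ube2c, while the named genes among the 93 that passed downward (blue) reach -2.92 for Gadd45g.

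The cell cycle lists together name 179 genes, of which 159 were on the array and 122 were bright enough over all 14 arrays to be tested. Of these 122, 69 rose, 1 fell (Myc) and 52 did not pass, with a median change of 1.56 beside 0.12 over all probe sets. Both 48 h arrays were above both normal arrays for 107 of the 122, beside 22.9% of all probe sets. The filter takes the mean over all 14 arrays, so members that were dim throughout are not in these counts. A member not above background in normal liver entered only through times when it was bright. Kif20a had a mean of 23.55 in normal liver, 489.8 at 48 h and 481.6 at 72 h. The shares that rose and the medians, here and in each list below, are thus partly set by the filter. Without 1 array the number that rose was 47 to 69, and with only the 4 arrays compared in the fit it was 40.

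**Figure D2:**
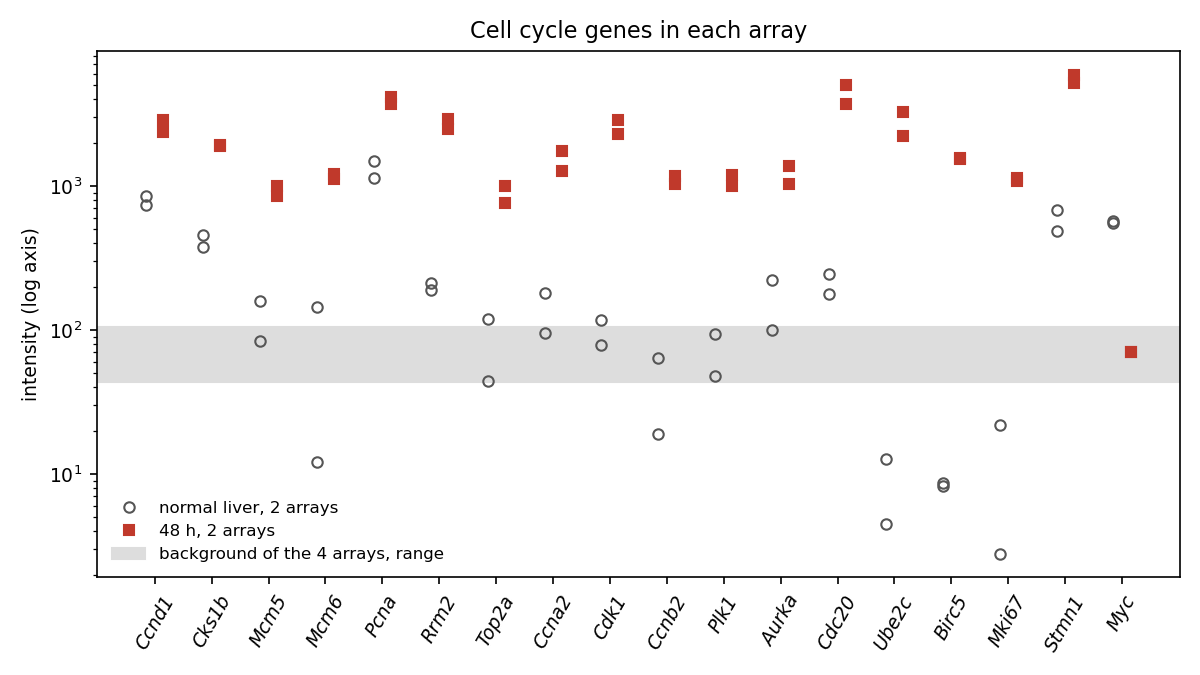
Intensity (y axis, log scale) of 18 cell cycle genes in the 2 normal arrays (open circles) and the 2 arrays at 48 h (red squares), 1 probe set a gene, with the background of the 4 arrays as a grey band. Ube2c, Birc5 and Mki67 lie below the band in normal liver and at 1088 or more at 48 h, Pcna and Ccnd1 were already well above it in normal liver, and Myc runs the other way.

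Of 16 tested genes of entry into the cycle 3 rose, 1 fell and 12 did not pass (median 0.91), and 1 rose without normal replicate 2. Cks1b, a subunit of cyclin-dependent kinases that helps destroy the inhibitor p27, measured 375.9 and 455.2 in normal liver and 1943 and 1893 at 48 h. It rose by 2.07 (SE 0.26, adjusted p = 0.000789), with no overlap between the groups. Cdkn2c, an inhibitor of Cdk4 and Cdk6, rose by 1.56 (SE 0.25, adjusted p = 0.00444, but 0.0549 without normal replicate 2), and Rbl1, the retinoblastoma relative p107, by 1.17 (SE 0.21, adjusted p = 0.0106, but 0.0957 without 48 h replicate 1 and 0.108 without normal replicate 2). Cyclin D1 (Ccnd1), which starts the passage through G1, measured 855.2 and 735.3 in normal liver and 2367 and 2881 at 48 h. Its change of 1.65 (SE 0.45) did not pass (adjusted p = 0.0939), while another probe set of the gene did at 1.89 (SE 0.33, adjusted p = 0.00824) and a further one did not at 1.79 (adjusted p = 0.0697). The cell cycle inhibitor p21 (Cdkn1a) measured 222.5 and 274.4 in normal liver and 706.8 and 797.3 at 48 h and also did not pass (1.41, SE 0.38, adjusted p = 0.0847). E2f1, which switches on S phase genes, was at 1.23 and cyclin E1 (Ccne1) at 1.20, neither past the test.

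Myc, a transcription factor of growth, was the only cell cycle member that fell. It measured 555.9 and 574.4 in normal liver and 70.4 and 70.8 at 48 h, where only replicate 2 was above background. The fall was 2.29 in log2 (SE 0.39, adjusted p = 0.00817), and the adjusted p was 0.0698 without 48 h replicate 1 and 0.0805 without normal replicate 2. The replicates of each group lay close together, and the groups did not overlap.

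Origin licensing, the loading of the MCM helicase on DNA, was represented by 12 tested genes, of which 9 rose and 3 did not pass (median 1.68). Among them were all 6 subunits of the MCM helicase, Mcm2 to Mcm7. Mcm6 measured 12.2 and 145.5 in normal liver, only the second above background, and 1128 and 1203 at 48 h. It rose by 3.37 (SE 0.41, adjusted p = 0.000625). Mcm5 rose from 159.9 and 84.3 to 852.6 and 999.8, a change of 2.49 (SE 0.25, adjusted p = 0.00012). The groups did not overlap for either gene. Dbf4, the activating partner of the kinase Cdc7 that fires origins, rose by 2.21 (SE 0.27) and Mcm2 by 2.20 (SE 0.49, adjusted p = 0.0376), but Mcm2 did not pass without 48 h replicate 1 (0.2), without 48 h replicate 2 (0.114) or without normal replicate 2 (0.356). The rises of Mcm7 (2.17), the MCM loader Cdt1 (1.89), Mcm4 (1.48), Mcm3 (1.47) and Gins1 (1.34), a subunit of the replicative helicase complex, were smaller. Gins1 lost the call without each of the 4 arrays in turn (adjusted p = 0.0549 to 0.318), and Mcm4 and Mcm3 without each but normal replicate 1 (up to 0.441 and 0.118), while Mcm7 and Cdt1 kept it. A second probe set of Mcm2 passed at 2.10 (adjusted p = 0.00251), while the 2 other probe sets of Mcm3 did not pass, at 1.48 and 1.56. Those that did not pass were Orc6 of the origin recognition complex at 0.69, geminin (Gmnn), which blocks relicensing, at 0.63, and Mcm10 at -0.82. Without 1 array 5 to 8 members rose, with quantile normalization 6 rose and 1 fell, and with only the 4 arrays compared 4 rose.

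Of 20 genes of DNA synthesis 8 rose and 12 did not pass (median 1.12). Rrm2, the regulated subunit of ribonucleotide reductase, which makes deoxynucleotides, measured 212.8 and 188.5 in normal liver and 2499 and 2936 at 48 h and rose by 3.43 (SE 0.25, adjusted p = 1.15e-05). All 3 probe sets of Rrm2 passed. Topoisomerase II alpha (Top2a), which untangles sister chromatids, rose by 2.80 (SE 0.36, adjusted p = 0.000936) from 119.6 and 44.5 to 766.5 and 1003. The histone chaperone Asf1b rose by 2.03 (SE 0.32, adjusted p = 0.00396, but 0.0629 without normal replicate 2), the primase subunit Prim1 by 1.88 (SE 0.24) and the sliding clamp Pcna by 1.55 (SE 0.21, adjusted p = 0.00149). Pcna had levels of 1136 and 1497 in normal liver and 3703 and 4179 at 48 h. DNA ligase 1 (Lig1, 1.38), the single-strand binding protein Rpa1 (1.19) and Slbp, which binds histone mRNA (1.13), rose too, but Rpa1 lost the call without each array in turn (adjusted p = 0.0549 to 0.292), and Lig1 and Slbp without each but normal replicate 1 (up to 0.171 and 0.319). The 12 others ranged from 0.44 (Brca1) to 1.36 (Fen1, of which another probe set passed at 2.19). Both 48 h arrays were above both normal arrays for 19 of the 20 genes, beside 22.9% of all probe sets. Without 1 array 5 to 8 rose, and 3 with only the 4 arrays compared.

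Of 18 mitotic kinases and cyclins 12 rose and 6 did not pass (median 2.05). Cdk1, the kinase that drives mitosis, measured 78.3 and 116.6 in normal liver and 2306 and 2856 at 48 h, a rise of 4.10 (SE 0.23, adjusted p = 1.66e-06). Its partner cyclin B2 (Ccnb2) measured 18.9 and 64.1 in normal liver, only replicate 2 above background, and 1026 and 1177 at 48 h, a rise of 3.59 (SE 0.26, adjusted p = 1.15e-05). Polo-like kinase Plk1 rose by 3.19 (SE 0.26, adjusted p = 2.60e-05) from 48.1 and 93.7, only the second above background, to 996.8 and 1193. The groups lay far apart in each of these genes, and the 48 h replicates close together. Cyclin A2 (Ccna2) rose by 3.02 (SE 0.30), the kinase Pbk by 3.08 (SE 0.28) and the spindle pole kinase Aurka by 2.57 (SE 0.32). The checkpoint kinase Ttk was at least 5.61-fold higher. Aurkb of the chromosomal passenger complex (2.30), the Cdk1-inhibiting kinases Wee1 (2.19) and Pkmyt1 (1.91), and the centrosome and centriole kinases Nek2 (1.85) and Plk4 (1.83) rose as well. Without 48 h replicate 1 Ttk (adjusted p = 0.0624), Aurkb (0.124) and Nek2 (0.132) did not pass, nor did Aurkb (0.0587) and Nek2 (0.133) without normal replicate 2. Foxm1, a transcription factor of mitotic genes, measured 289.9 and 91.9 in normal liver and 618.3 and 419.2 at 48 h and did not pass (1.32, SE 0.46, adjusted p = 0.201). Cyclin B1 is not analysed here. Without 1 array 9 to 13 members rose, and 7 with only the 4 arrays compared.

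The promoters of the 3 called genes of this list with the largest change and an entry in the promoter table are shown because many genes of this phase share short promoter motifs. CCAAT boxes are bound by the factor NF-Y. The letters TTTGAA are the core of the cell cycle genes homology region, which MuvB complexes bind, and TTTAAA or TTCGAA were searched as its variants. For the E2F site the form GCGCGAA was searched beside the form GCGGGAA. Each sequence runs 5' to 3' on the gene's strand from 250 bases before to 50 after the annotated start, from RefSeq (GRCm38.p6), with capitals for these motifs on either strand, so that a match on the other strand is printed as its reverse complement. Cdk1 lies at chr10:69352863-69353162 on the minus strand, Ccnb2 at chr9:70421505-70421804 on the minus strand and Plk1 at chr7:122159185-122159484 on the plus strand.
Cdk1: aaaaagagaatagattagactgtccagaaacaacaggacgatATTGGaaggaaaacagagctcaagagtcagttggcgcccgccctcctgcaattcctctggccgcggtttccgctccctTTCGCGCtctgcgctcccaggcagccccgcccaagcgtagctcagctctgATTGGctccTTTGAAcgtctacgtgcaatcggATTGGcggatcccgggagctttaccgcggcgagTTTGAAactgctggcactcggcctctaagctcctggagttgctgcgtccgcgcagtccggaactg
Ccnb2: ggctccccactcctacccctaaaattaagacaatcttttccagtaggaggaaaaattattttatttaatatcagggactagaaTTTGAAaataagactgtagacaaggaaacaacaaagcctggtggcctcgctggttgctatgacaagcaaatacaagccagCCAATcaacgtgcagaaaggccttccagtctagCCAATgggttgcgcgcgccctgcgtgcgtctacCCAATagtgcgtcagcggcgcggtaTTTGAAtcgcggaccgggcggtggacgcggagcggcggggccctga
Plk1: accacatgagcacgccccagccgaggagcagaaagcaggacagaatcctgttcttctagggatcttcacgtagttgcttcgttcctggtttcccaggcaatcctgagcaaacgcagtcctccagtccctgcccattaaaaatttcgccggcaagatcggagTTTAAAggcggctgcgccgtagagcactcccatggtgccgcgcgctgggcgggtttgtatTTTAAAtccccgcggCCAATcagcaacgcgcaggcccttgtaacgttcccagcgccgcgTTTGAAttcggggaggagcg
The Cdk1 window held 3 CCAAT matches, all on the other strand and beginning 208, 80 and 48 bases before the start, TTTGAA 71 and 15 bases before it, and a GCGCGAA match 130 bases before it. In the Ccnb2 window CCAAT began 87, 54 and 21 bases before the start, and TTTGAA 167 bases before and at base 5 after it. Plk1 had a single CCAAT 14 bases before the start, TTTAAA 89 and 29 bases before it and TTTGAA at base 31 after it.

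Over the table, with 1 promoter for each of 27025 genes and both strands read, 37.9% held CCAAT, 18.1% TTTGAA and 7.12% both, without counting overlap between motifs. Of the 69 cell cycle members that rose 55 had an entry; 41 of them held CCAAT, 32 TTTGAA and 28 both. By role, TTTGAA stood in 16 of 20 promoters of spindle and cytokinesis genes that rose, in 2 of 7 of origin licensing and in 2 of 8 of DNA synthesis. GCGCGAA stood in 3 of the 7 licensing, 0 of the 8 DNA synthesis and 1 of the 20 spindle promoters, beside 1.59% of the table, and GCGGGAA in 3, 1 and 0 of them, beside 4.66%. A match of letters is a description and not a site shown to be used, and the genes were picked by their change.

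Of 12 genes of the anaphase-promoting complex, its activators and cohesion, 4 rose and 8 did not pass (median 1.05). Ube2c, the enzyme that supplies ubiquitin to the complex, was not above background in either normal array (12.8 and 4.5) and measured 2241 and 3270 at 48 h. It was at least 48.1-fold higher at 48 h, with a fitted change of 5.40 (SE 0.30, adjusted p = 1.66e-06). Cdc20, the activator that starts anaphase, rose by 4.04 (SE 0.28, adjusted p = 8.23e-06) from 245.6 and 177.5 to 3734 and 5033, and its second probe set passed at 4.97. Mad2l1, which holds Cdc20 back until chromosomes are attached, rose by 2.77 (SE 0.32, adjusted p = 0.000429), and Rad21 of cohesin by 1.60 (SE 0.34, adjusted p = 0.0302). The call of Rad21 was lost without 48 h replicate 1 (0.247), without 48 h replicate 2 (0.0677) and without normal replicate 2 (0.307). A second probe set of Rad21 was at 0.81 and did not pass. Of the core subunits of the complex Cdc16 was at 0.42, Anapc5 at 0.26 and Anapc1 at 0.23, none past the test. Securin (Pttg1), which is destroyed at anaphase, was at -0.54 and the later activator Fzr1 at 0.27, neither past the test.

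Spindle, kinetochore and cytokinesis genes were the list with the largest share that passed, 24 of 27, with 0 that fell and a median of 2.34 (2.43 with the 7 genes that were not above background in normal liver set at their lower bound). Both 48 h arrays were above both normal arrays for all 27, beside 22.9% of all probe sets. Of 36 members on the array only these 27 passed the filter, the 7 through times when they were bright. Birc5, survivin of the chromosomal passenger complex, measured 8.7 and 8.3 in normal liver, both under background, and 1573 and 1546 at 48 h. It was at least 27.7-fold higher (fitted change 4.62, SE 0.20, adjusted p = 3.93e-07). Cdca3, which promotes entry into mitosis, was at least 34.9-fold higher (65.6 and 31.7 against 1671 and 2304, adjusted p = 1.15e-05). A second probe set of Cdca3 was at 0.68 and did not pass. Mki67, the Ki-67 protein that coats mitotic chromosomes, was at least 19.7-fold higher (21.8 and 2.8 against 1088 and 1129, adjusted p = 1.65e-05).

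Other members of this list covered each step of division. Hmmr, a spindle assembly factor, measured 184.2 and 8.2 in normal liver, only replicate 1 above background, and 1453 and 1779 at 48 h, a rise of 3.73 (SE 0.46), and all 4 of its probe sets passed. Stathmin (Stmn1), which takes microtubules apart, rose by 3.15 (SE 0.24, adjusted p = 1.33e-05) from 679.9 and 484.7 to 5176 and 5936. Of kinetochore genes Nuf2 was at least 11.6-fold higher, Cenpf rose by 2.20 (a second probe set, at 0.59, did not pass) and the centromeric histone Cenpa by 2.17. Of genes of the central spindle and cleavage furrow Prc1 rose by 3.03 and Racgap1 by 2.34, while Ect2 was at least 11.9-fold, Kif20a at least 8.70-fold and Anln at least 7.78-fold higher. The smallest rises were of the spindle motor Kif11 (1.73) and of Tacc3 (1.71). Kif11 did not pass without 48 h replicate 1 (adjusted p = 0.311), 48 h replicate 2 (0.0945) or normal replicate 2 (0.437), Tacc3 without 48 h replicate 1 or normal replicate 2 (both 0.12), and Racgap1 without normal replicate 2 (0.0523). Cdca5 (1.69), Kif2c (1.22) and Ckap5 (0.84) did not pass, although of the 3 other probe sets of Kif2c 1 passed at 1.60 and 1 as at least 6.51-fold higher. Without 1 array 17 to 24 members rose, and 18 with only the 4 arrays compared.

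Of 17 genes of condensin, the complex that compacts chromosomes, and of chromatin, 9 rose and 8 did not pass (median 1.35). Smc2 and Smc4, the condensin core, both rose, Smc2 by 2.83 (SE 0.36, adjusted p = 0.000936) and Smc4 by 2.12 (SE 0.26, adjusted p = 0.000625), of which a second probe set, at 2.27, did not pass. Smc2 measured 75.4 and 7.1 in normal liver, only replicate 1 above background, and 567.1 and 628.4 at 48 h. The chromatin protein Hmgb2 was at least 6.69-fold higher (42.1 and 11.8 against 502.8 and 281.5, adjusted p = 0.000789), and the histone variant H2ax rose by 2.38 (SE 0.28). Lamin B1 (Lmnb1) was at 0.16 and the linker histone H1f2 at 0.28, not past the test. With only the 4 arrays compared 4 rose. Of 9 tubulin genes, which form the microtubules, 3 rose and 6 did not pass (median 0.91). Tubb6 rose by 3.39 (SE 0.35, adjusted p = 0.000177) from 39.3 and 78.7, only the second above background, to 948.8 and 1376, Tubb5 by 1.74 (SE 0.26) and Tubb4b by 1.65 (SE 0.23). Of the 4 probe sets of Tubb4b this was the only one to pass. At 4 h Tubb6 already measured 1367 and 1079.

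**Figure D3:**
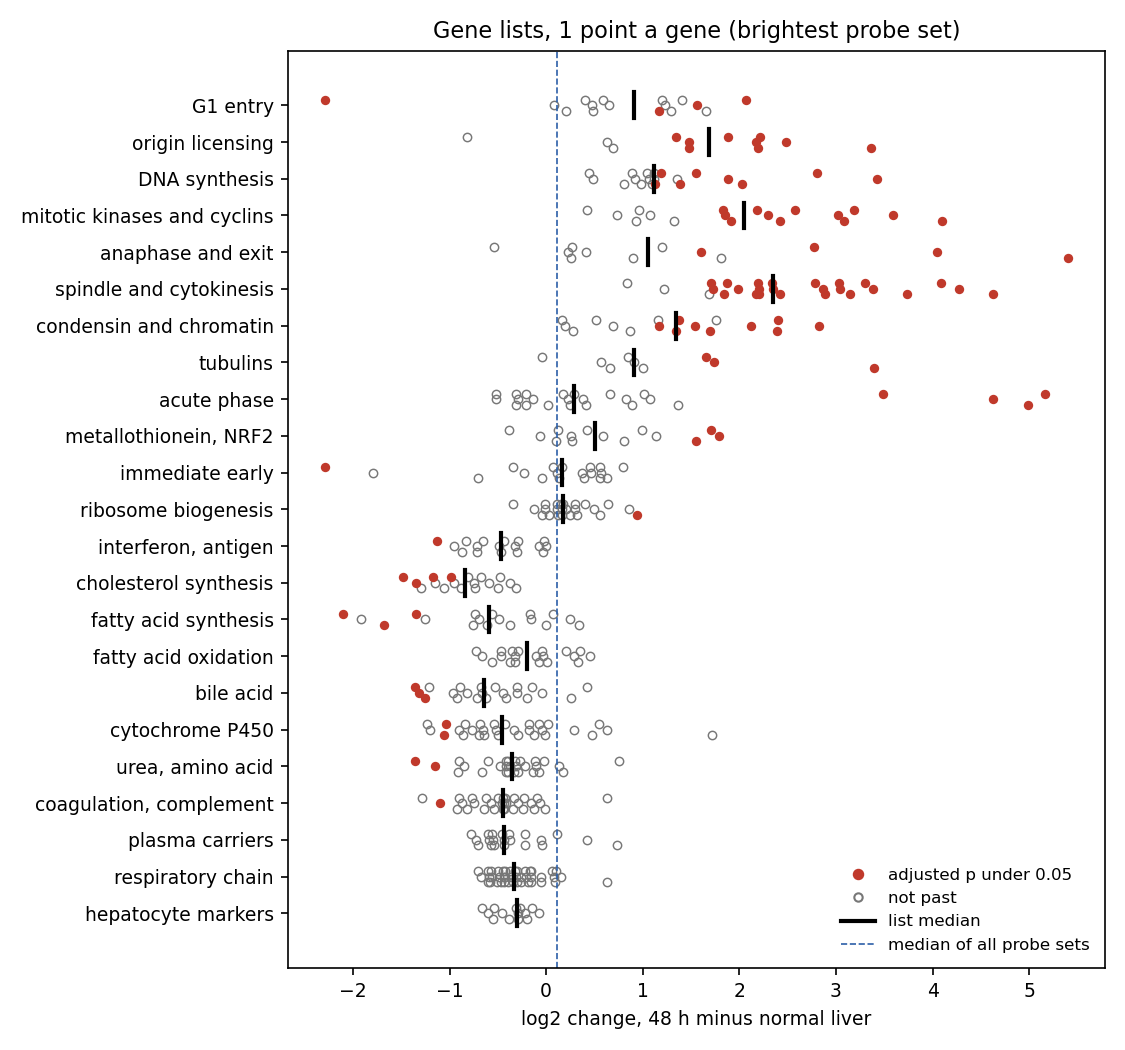
Change of every tested member of 23 gene lists (x axis, log2 units, 48 h minus normal liver), 1 point a gene, red where adjusted p was under 0.05, with a black bar at each list's median and a dashed line at the median of all probe sets, 0.12. Spindle and mitotic lists have medians of 2.34 and 2.05, acute-phase genes have 4 members far to the right, and the cholesterol and bile acid lists have medians of -0.85 and -0.64.

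The test of 48 h against 36 h asks where the RNA of the liver differed between these times, which lie 12 h apart. Of all probe sets 63 passed (0.464%), 28 higher at 48 h (0.206%) and 35 lower (0.258%). Replicate 2 of the 36 h pair stands apart from the other arrays of this comparison. Its pyruvate carboxylase control had a 5' signal of 0.105 of the 3' signal, against 0.318 to 0.584 in the normal arrays, the 48 h arrays and 36 h replicate 1. In the series, replicate 2 was low at 8, 12 and 72 h too (0.105, 0.091 and 0.137). The pancreatic signal of 36 h replicate 2 differed as well. Its summed intensity of 22 pancreatic acinar transcripts was 54110, against 1629 in 36 h replicate 1 and 4018 and 3172 at 48 h. Without it 1 probe set passed, without 36 h replicate 1 80 passed, and without 48 h replicates 1 and 2 in turn 19 and 3 passed. The part of RNA quality and of pancreatic transcripts in the result was not tested.

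Among the tested cell cycle genes 14 of 122 were higher at 48 h than at 36 h and 0 lower, beside 0.206% and 0.258% of all probe sets. All 14 were in the mitotic, anaphase and spindle lists. This count was 9 without 36 h replicate 1, 0 without 36 h replicate 2, 5 without 48 h replicate 1 and 0 without 48 h replicate 2. Cdc20 measured 701.7 and 710.2 at 36 h and 3734 and 5033 at 48 h, a difference of 2.53 (SE 0.28, adjusted p = 0.00553), and Ube2c 507.8 and 485.1 against 2241 and 3270, a difference of 2.32 (SE 0.30, adjusted p = 0.00834). The 36 h arrays lay close together and far below both 48 h arrays. Without 36 h replicate 2 the differences were 2.53 (adjusted p = 0.0572) and 2.29 (0.0942). Ccnb2 differed by 1.91, Cenpa by 1.81, Plk1 by 1.77 and Cdk1 by 1.56, with adjusted p of 0.0088, 0.0088, 0.0104 and 0.0104 and 0.102, 0.0942, 0.143 and 0.166 without 36 h replicate 2.

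By direction alone, both 48 h arrays were above both 36 h arrays for all 27 spindle genes, for 16 of 18 mitotic kinases and cyclins and for 8 of 12 anaphase genes, beside 21.6% of all probe sets. For origin licensing it was 3 of 12, with 3 others below both 36 h arrays (18.4% of all probe sets). The median difference was 1.46 in the spindle list and 1.02 in the mitotic list, and 0.03 in the licensing list. Mcm5, with 1019 and 902.4 at 36 h and 852.6 and 999.8 at 48 h, and Pcna, with 4356 and 4025 against 3703 and 4179, overlapped between these times.

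Cholesterol synthesis genes showed the opposite difference. Of 18 tested, 8 were lower at 48 h than at 36 h (median -1.21), beside 0.258% of all probe sets. Both 48 h arrays were below both 36 h arrays for 14, beside 18.4% of all probe sets. Squalene epoxidase (Sqle) measured 3221 and 3648 at 36 h and 790.2 and 728.5 at 48 h (-2.09, adjusted p = 0.0088), and lanosterol synthase (Lss) 2245 and 2128 against 602.4 and 331.2 (-2.15, adjusted p = 0.00971). Without 36 h replicate 2 these were -2.01 and -2.19, both with an adjusted p of 0.102. Sult1e1, which sulfates oestrogens, measured 1641 and 2298 at 36 h and was not above background at 48 h (33.7 and 19.1), at least 23.4-fold lower (adjusted p = 0.00416, or 0.0572 without 36 h replicate 2). Cidec, a lipid droplet protein, was at least 7.51-fold lower (728.6 and 532.8 against 79.6 and 57.9, adjusted p = 0.0104, or 0.0942 without 36 h replicate 2). Neither was above background in normal liver. The hormone Fgf21 had a difference of -2.30 (500.1 and 683.7 against 50.6 and 100.8, only the second above background; adjusted p = 0.0112, or 0.161 without 36 h replicate 2).

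Against 72 h no probe set passed in the limma fit (0% in either direction), with 370 at an unadjusted p under 0.05, and 1 passed with an intensity trend in the variance or with 4 times the added constant. Both 48 h arrays were above both 72 h arrays for 65 of 122 cell cycle genes, beside 13.4% of all probe sets, among them 10 of 12 of origin licensing, 13 of 20 of DNA synthesis, 17 of 27 of the spindle list and 2 of 12 of the anaphase list. The median difference was 0.52 for licensing, 0.36 for DNA synthesis, 0.37 for mitotic kinases and cyclins and 0.30 for the spindle list. Cdk1 measured 1756 and 1656 at 72 h, below both 48 h arrays, and Ccnb2 1440 and 1671, above both. None of these differences passed the test. Replicate 2 of the 72 h pair had a low 5' signal of the pyruvate carboxylase control, 0.137 of the 3' signal against 0.507 in replicate 1. Without that array the median difference over all probe sets was -0.018, and 0.0056 with it. The part of RNA quality in this comparison was not tested.

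**Figure D4:**
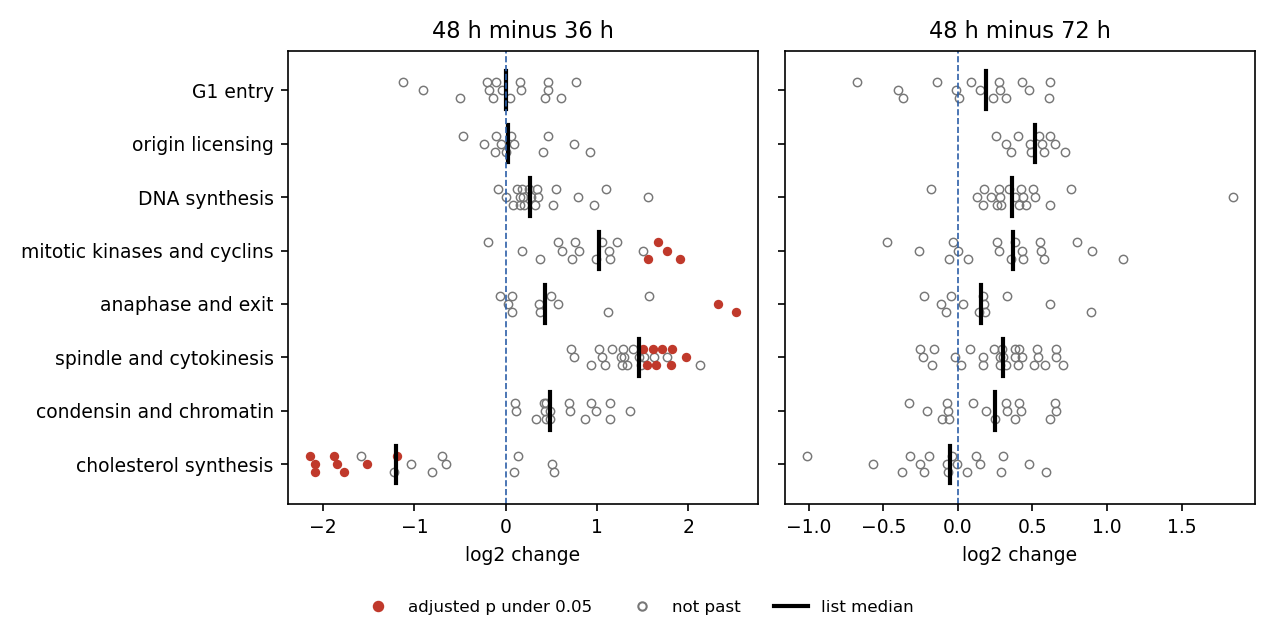
Difference of 48 h from 36 h (left) and from 72 h (right) for the tested members of 7 cell cycle lists and of cholesterol synthesis (x axis, log2 units), 1 point a gene, red where adjusted p was under 0.05, with the median as a black bar and 0 as a dashed line. On the left the spindle list has a median of 1.46 and cholesterol synthesis of -1.21, and on the right no point passed.

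**Figure D5:**
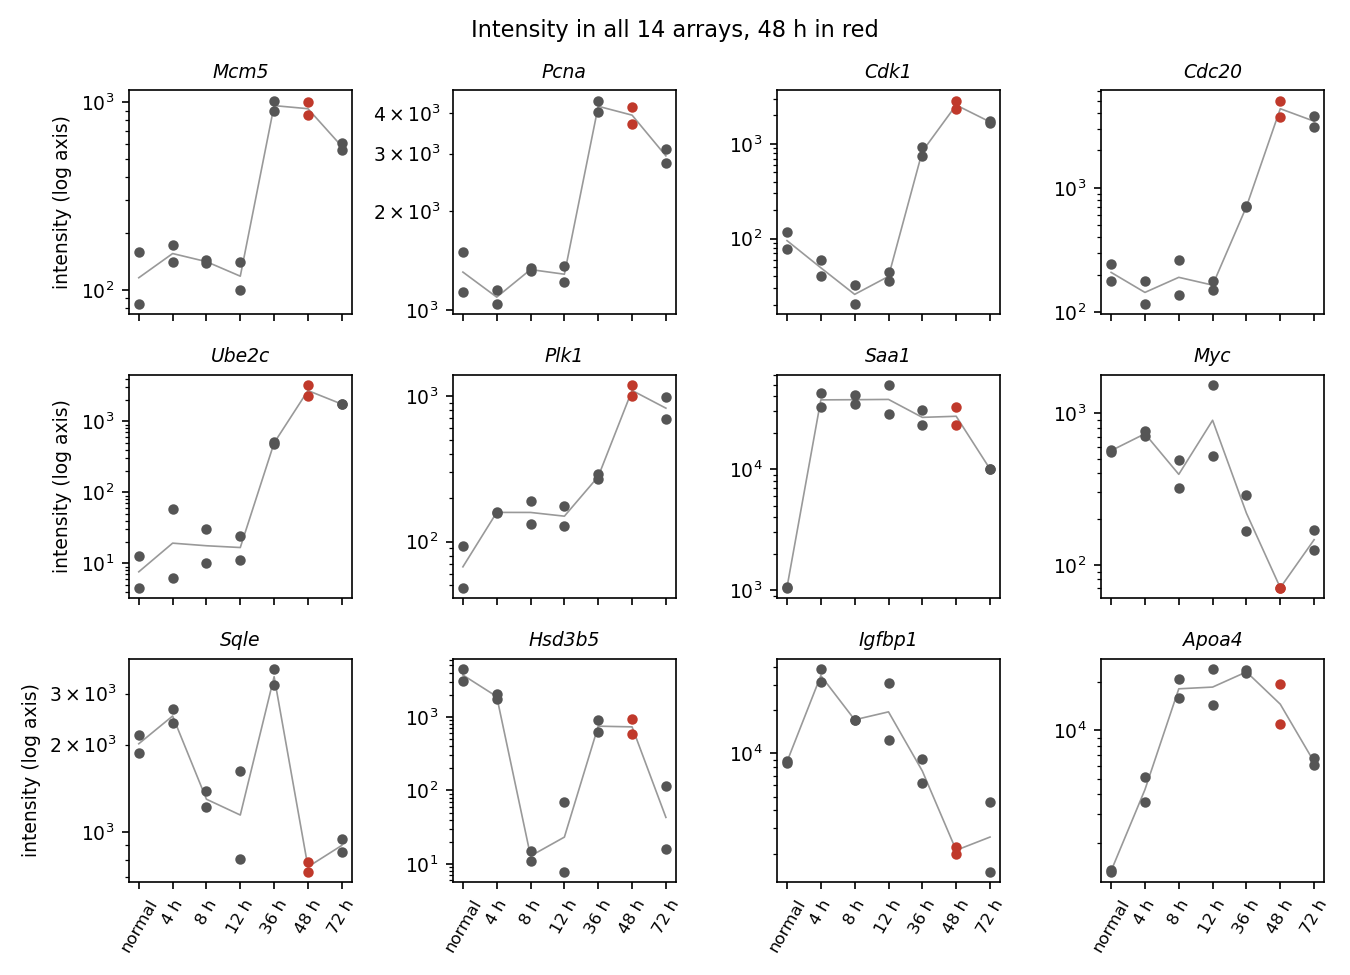
Intensity (y axis, log scale) of 12 genes in all 14 arrays from normal liver to 72 h, 2 points a group joined at their geometric mean, with 48 h in red. Cdk1, Cdc20, Ube2c and Plk1 have their highest array at 48 h (2856, 5033, 3270 and 1193), Mcm5 and Pcna overlap between 36 h and 48 h, and Myc and Sqle have both of their lowest arrays at 48 h.

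Acute-phase proteins, which hepatocytes secrete in response to interleukin 6 and injury, were still raised at 48 h for a few genes only. Of 25 tested, 4 rose and 21 did not pass (median 0.29). Serum amyloid Saa1 measured 1041 and 1066 in normal liver and 23150 and 32360 at 48 h, a rise of 4.63 (SE 0.29, adjusted p = 4.02e-06), and Saa2 483.5 and 510.6 against 15030 and 26150, a rise of 5.17 (SE 0.32, adjusted p = 3.99e-06). These genes are near copies of each other, and their probe sets may share signal. Lipocalin 2 (Lcn2), which binds bacterial iron carriers, rose by 4.99 (SE 0.49, adjusted p = 0.00012) from 352.4 and 257.2 to 10710 and 11930. Orosomucoid Orm2 rose by 3.49 (SE 0.35, adjusted p = 0.000143), from 185.9 and 150.9 to 3024 and 2019, while its relatives Orm1 (0.89) and Orm3 (0.66) did not pass. Haptoglobin (Hp) was at 0.02 and the fibrinogen chains Fga, Fgb and Fgg at -0.14, -0.32 and -0.29, none past the test. The 4 calls held without each array in turn, and 7 members rose after quantile normalization. Lcn2 is also a neutrophil granule gene. The summed intensity of 11 neutrophil markers was 1461 and 975.3 in normal liver and 2649 and 1548 at 48 h; 0 of 9 tested passed (median 0.59, S100a8 at 1.19 and Mpo at 0.08), and Camp was not above background in any of the 4 arrays. Prtn3, a protease gene of myeloid granules that is not in this marker list, did pass, at least 7.90-fold higher (16.3 and 17 against 373.4 and 529.1). The part of such cells in the rise of Lcn2 was not tested.

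Metallothioneins, which bind zinc and copper, and targets of the oxidative stress factor NRF2 had 3 of 14 members up and 11 not past the test (median 0.51). Mt1 rose by 1.79 (SE 0.26, adjusted p = 0.00258) from 4261 and 4756 to 13010 and 18960, although its other probe set was at 0.00, and with the mean of the gene's probe sets Mt1 did not pass (0.90, adjusted p = 0.088). Mt2 rose by 1.71 (SE 0.29, adjusted p = 0.008), but not without 48 h replicate 2 (0.0677) or normal replicate 2 (0.108), and the glutathione transferase Gstm3 by 1.56 (SE 0.23, adjusted p = 0.00264). Hepcidin 2 (Hamp2), a relative of the iron-regulating hormone, measured 17810 and 18760 in normal liver and 2293 and 2526 at 48 h. It fell by 2.90 (SE 0.27, adjusted p = 8.45e-05), with every 48 h array far below every normal array. Hepcidin itself (Hamp) was at 0.17 and did not pass; the sequences are similar and their probe sets may share signal.

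Among the largest falls, Gadd45g, a stress-induced inhibitor of growth, measured 1756 and 2487 in normal liver and 205.4 and 247.6 at 48 h, a fall of 2.92 in log2 (SE 0.41, adjusted p = 0.00194). Slc25a30, a mitochondrial carrier, fell by 1.99 (SE 0.27, adjusted p = 0.00136) from 2197 and 2716 to 694.9 and 471.5, in all 4 of its probe sets. Coq8a, needed to make coenzyme Q, fell by 2.21 (SE 0.34, adjusted p = 0.00342) from 5113 and 7678 to 1076 and 1596. Of the 15 largest falls 4 passed without each array in turn, Gadd45g, Hamp2, Slc25a30 and Acss2. Without 48 h replicate 1 11 of the 15 lost the call, 4 without 48 h replicate 2, 4 without normal replicate 1 and 11 without normal replicate 2, with sizes that kept their sign. The 15 largest rises all passed in these 4 fits.

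Neat1, the long noncoding RNA of paraspeckles, measured 1106 and 2040 in normal liver and 203.9 and 239.4 at 48 h (-2.49, SE 0.54, adjusted p = 0.0316, up to 0.307 with 1 array left out). Igfbp1, which binds insulin-like growth factors and answers to insulin, measured 8926 and 8583 in normal liver and 1989 and 2237 at 48 h; the groups were well apart, and the adjusted p was 0.0497, rising to 0.0973 to 0.283 with 1 array left out. Hsd3b5, a male-biased steroid reductase of liver, fell by 2.25 (SE 0.42, adjusted p = 0.014, 0.167 without 48 h replicate 1 and 0.166 without normal replicate 2) from 3052 and 4494 to 577 and 927.8. Its relative Hsd3b1 rose by 2.50 (SE 0.42, adjusted p = 0.00693) from 80.9 and 31, only replicate 1 above background, to 570.7 and 563.3, but not without 48 h replicate 1 (0.0624) or normal replicate 2 (0.102). The acetyltransferase relative Nat8f1 (-1.93), the protease Ctsf (-1.92), the transcription factor Foxq1 (-1.74), the leucine zipper protein Tsc22d1 (-1.73) and the adipokine Serpina12 (-1.66) also fell, each with the call lost without at least 48 h replicate 1 and normal replicate 2 (highest adjusted p of 0.209, 0.292, 0.104, 0.0599 and 0.187). A transcript known only as D17H6S56E-5 was among the largest rises, at 3.52 (SE 0.24, adjusted p = 7.30e-06).

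Of the 18 tested genes for making cholesterol 4 fell and 14 missed the threshold, with a median of -0.85 (-0.89 after quantile normalization), and both 48 h arrays were below both normal arrays for 16 of 18, beside 16.3% of all probe sets. Lss fell by 1.49 (SE 0.31, adjusted p = 0.0241) from 1343 and 1376 to 602.4 and 331.2, and Sqle by 1.34 (SE 0.28, adjusted p = 0.0269) from 2160 and 1878 to 790.2 and 728.5. The synthase Hmgcs1 fell by 1.17 (adjusted p = 0.0367), in 1 of its 4 probe sets, and squalene synthase (Fdft1) by 0.99 (adjusted p = 0.0461), in 1 of its 2. The groups did not overlap for these genes, but the calls were few and weak: 1, 3, 1 and 0 members fell without 48 h replicates 1 and 2 and normal replicates 1 and 2 in turn.

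Of 18 fatty acid synthesis genes 3 fell and 15 did not pass (median -0.59, or -0.41 after quantile normalization). Thrsp, which promotes fat synthesis, measured 15580 and 13770 in normal liver and 3097 and 3663 at 48 h and fell by 2.10 (SE 0.40, adjusted p = 0.0159, 0.0563 to 0.144 with 1 array left out). Acss2, which makes acetyl-CoA from acetate, fell by 1.67 (SE 0.25, adjusted p = 0.00267), with a second probe set at -1.08 not past the test, and fatty acid synthase (Fasn) by 1.35 (SE 0.23, adjusted p = 0.00787, but 0.0624 without 48 h replicate 1 and 0.0877 without normal replicate 2). Srebf1, the regulator of lipid synthesis, was at -0.76 (SE 0.31, adjusted p = 0.288). With 1 array left out 1 or 2 members fell. In the lipid droplet list Apoa4, an apolipoprotein of triglyceride transport, rose by 3.38 (SE 0.32, adjusted p = 8.45e-05) from 1362 and 1319 to 10930 and 19230, and 14 of 16 did not pass (median -0.15). Dgat2, which makes triglyceride, fell from 10470 and 12660 to 4830 and 6821 (adjusted p = 0.0446, but 0.35 without 48 h replicate 1).

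Of 22 genes of bile acid synthesis and transport 3 fell and 19 did not pass (median -0.64, or -0.52 after quantile normalization). They were the hydroxylases Cyp8b1 (-1.36, SE 0.28, from 4810 and 5272 to 1486 and 2508), Cyp39a1 (-1.31, SE 0.30) and Cyp27a1 (-1.25, SE 0.21, adjusted p = 0.00738). Cyp7a1, the rate-limiting enzyme of the pathway, measured 1104 and 1348 in normal liver and 1049 and 1142 at 48 h, overlapping, with a change of -0.15 (SE 0.30, adjusted p = 0.847). The transporters Slc10a1 (-0.89) and Abcb11 (-0.93), which take up and export bile acids, did not pass. None of the 3 calls held without 48 h replicate 1 or without normal replicate 2.

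Among 30 cytochrome P450 genes, the enzymes of drug and steroid metabolism, 2 fell, Cyp2f2 (-1.06, from 32550 and 39610 to 14570 and 20390) and Cyp2d10 (-1.03), and 28 did not pass (median -0.46). This count and those that follow are to be read beside the 0.685% of all probe sets that fell. Of 28 genes of urea and amino acid metabolism, histidase (Hal, -1.36) and proline dehydrogenase (Prodh, -1.15) fell and 26 did not pass (median -0.35), and of 31 coagulation and complement genes C8b fell (-1.10) and 30 did not pass (median -0.45). These 5 calls were all lost without 48 h replicate 1 and without normal replicate 2, with adjusted p from 0.197 to 0.389 in those fits. No member passed among 21 plasma carriers (median -0.43), 14 hepatocyte markers (-0.30), 42 subunits of the respiratory chain (-0.33), 20 genes of fatty acid oxidation (-0.20) and 16 of glucose output and glycogen (-0.35). After quantile normalization the medians were -0.24 for P450, -0.13 for urea and amino acids, -0.26 for coagulation, -0.00 for carriers, 0.00 for hepatocyte markers and -0.17 for the respiratory chain, so the direction of the carriers and hepatocyte markers rests on the scaling. Their medians also moved with single arrays. Without 48 h replicate 1 they were -0.087 for carriers and -0.049 for hepatocyte markers, and without 48 h replicate 2 -0.753 and -0.595. Albumin (Alb) measured 46240 and 64350 in normal liver and 29380 and 53460 at 48 h, overlapping (-0.46, SE 0.29, adjusted p = 0.504), and Cyp2e1 30790 and 35940 against 22830 and 32260 (-0.29, SE 0.25); both differences had the opposite sign after quantile normalization, at 0.06 and 0.01.

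In the lists that follow few members passed, beside 1.64% of all probe sets that rose and 0.685% that fell. Of 19 immediate-early genes, which answer to growth signals within the first hours, Myc alone passed, and Jun was at 0.45 (SE 0.31, adjusted p = 0.533). Of 12 p53 targets Phlda3 rose (1.26, SE 0.23, adjusted p = 0.0114, but 0.133 without 48 h replicate 1 and 0.125 without normal replicate 2) and 11 did not pass. Of 17 interferon and antigen presentation genes Iigp1, a GTPase induced by interferon, fell (-1.13, SE 0.24, adjusted p = 0.0282, lost without each array in turn at 0.0587 to 0.113) and 16 did not pass, with a median of -0.46. Among 20 growth factors and receptors Igfbp1 alone passed, and hepatocyte growth factor (Hgf) was at 0.37 (SE 0.21, adjusted p = 0.463). Klf15, which controls the use of amino acids, fell by 1.24 (SE 0.25, adjusted p = 0.0209, up to 0.221 without normal replicate 2) as the only 1 of 21 liver transcription factors. The male-biased list had Hsd3b5 and Keg1 (-1.17, lost without each array) down of 11 tested, and the female-biased list Lifr, the receptor of leukaemia inhibitory factor (-1.27, lost without each array), of 7.

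Of 24 genes of ribosome biogenesis Nhp2 rose (0.94, adjusted p = 0.0438, lost without each array at 0.0533 to 0.173) and 23 did not pass, of 21 genes of endoplasmic reticulum stress the asparagine synthetase Asns rose (1.51, adjusted p = 0.0106, 0.117 without 48 h replicate 1 and 0.12 without normal replicate 2), and of 23 actin, annexin and S100 genes Tagln2 rose (1.08, adjusted p = 0.0493, lost without each array). No member passed among 23 proteasome and 13 clock genes; the clock output Dbp was at 0.70 (SE 0.25, adjusted p = 0.216), and at -1.68 against 36 h (adjusted p = 0.0104). The medians of ribosome biogenesis (0.17), proteasome (-0.09) and endoplasmic reticulum stress (-0.16) were -0.00, 0.05 and 0.03 after quantile normalization. Single calls in lists of this size say little about a list, since 1.64% of all probe sets rose and 0.685% fell.

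Markers of other cell types showed few calls, to be read beside the 1.64% of all probe sets that rose and the 0.685% that fell. Of 21 genes of stellate cells and matrix Timp1, an inhibitor of matrix proteases, rose by 1.61 (SE 0.22, adjusted p = 0.00147) from 59.7 and 51.2, only the second above background, to 295.1 and 277.8, and 20 did not pass; the summed intensity of 23 such genes was 13570 and 14230 in normal liver and 13540 and 14840 at 48 h. No member passed among 18 Kupffer cell markers (sums of 19700 and 20040 against 17300 and 17300), 15 endothelial (9302 and 10290 against 6988 and 8089), 6 lymphocyte (2014 and 1620 against 2301 and 1478), 6 erythroid (3564 and 4430 against 3295 and 3144) and 9 of cholangiocytes and progenitors. The last had sums of 8899 and 10940 against 15390 and 16680, which the brightest genes dominate. The median intensity of these genes was 147 and 132.2 against 159.3 and 120.5. Alpha-fetoprotein (Afp) was at 0.43 (SE 0.35, adjusted p = 0.608).
Of 22 pancreatic acinar transcripts 0 passed (median 0.45, 0.21 after quantile normalization); their sums were 2981 and 1606 against 4018 and 3172, and 7, Cpa1 and Ctrl among them, were not above background in any of the 4 arrays. Of 18 skeletal muscle transcripts 0 passed, with sums of 2926 and 1676 against 3985 and 2245, and Acta1 and Mb were not above background in the 4 arrays. Of 4 adipose markers tested, resistin (Retn) rose by 1.59 (adjusted p = 0.0215, lost without each array but normal replicate 1), and Thrsp and carbonic anhydrase 3 (Car3, -1.12, adjusted p = 0.0174, lost without 48 h replicate 1 and normal replicate 2), both also made by hepatocytes, fell.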

How the data were processed

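Each of 14 arrays measured biotin-labelled total RNA of mouse liver, from pooled livers of 4 to 6 mice per the series design text. The authors deposited 1 intensity for each of 22690 probe sets and array, on a linear scale. Every array has a trimmed mean of 500.2 or 500.3, without its lowest and highest 2% of values, so the values were scaled before they were deposited. The sources used here do not name the software that summarised probes. The design text names GeneSpring 7.2 for the authors' selection by a 2-fold change.

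From the deposited intensities log2(intensity + 57) was computed here, 57 being about the 25th percentile of all values. Of 22626 probe sets that are no controls, 20380 carry 1 gene symbol, 691 several and 1555 none in the platform annotation. The 13576 with a mean intensity of at least 128.8 (the 40th percentile), for 8453 genes, were tested with limma 3.58.1 in R 4.3.3 (lmFit and eBayes), in 1 fit of 7 groups and 14 arrays. P-values were adjusted by Benjamini-Hochberg over all of them at 0.05. A gene is given by its brightest probe set. Background was set for each array at the 95th percentile over 27 probe sets for bacterial controls. Where a group has no array above background, a lower bound of the fold was computed. It is the geometric mean intensity of the bright group over the geometric mean of the backgrounds of the dim group's arrays. No constant is added in this bound, so a fitted change, with 57 added to each intensity, can be smaller than the bound. Correlations between arrays are over log2 values.

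Genes named are the 15 largest rises and falls among called genes without overlap between groups and whose higher group mean reached that of the median probe set. To these come the called members of each list with the largest change (at most 4), the 5 largest rises and falls against 36 h and 72 h, called cell cycle members against them, and a fixed set of landmark genes; other list members are named to describe their list. The members and lists were chosen with earlier results of these data known. Alternatives were another added constant, another filter or none, quantile normalization, array weights, an intensity trend, other probe set rules, only the 4 arrays compared, a replicate block and arrays left out. A fit that leaves out an array assumes that the lone array of its group varies like the other groups. The scripts were tested on simulated data.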

Additional observations from a re-analysis of the deposited data

Results flagged for a closer look

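The change from normal liver differed between 48 h and 36 h for 25 named genes, by the limma test of the difference itself over all probe sets. Both changes share the normal arrays, which cancel in the difference, so each value below is 48 h minus 36 h in log2 units. None of the 25 passed without 36 h replicate 2, the array with a low 5' signal and high pancreatic transcripts, and the part of either was not tested.

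Genes of mitosis were higher at 48 h. Cdc20 differed by 2.53, Ube2c by 2.32, Cdca3 by 1.97, Ccnb2 by 1.91, Kif20a by 1.82, Cenpa by 1.81, Plk1 by 1.77, Prc1 by 1.71, Aurka by 1.67, Birc5 by 1.65, Stmn1 by 1.61, Cdk1 by 1.56, Tacc3 by 1.54 and Cenpf by 1.5. The adjusted p ran from 0.00553 for Cdc20 to 0.0497 for Tacc3.

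Genes of cholesterol synthesis were lower at 48 h, with Lss at -2.15, Sqle at -2.09, Hmgcs1 at -1.77 and Fdft1 at -1.52. In all 4 genes both 48 h arrays were below both normal arrays, and both 36 h arrays above them.

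Sult1e1 (fitted difference -4.59) and Cidec (-2.44) were above background in no 48 h array, so their sizes are bounds, at least 23.4-fold and at least 7.51-fold lower. Of other genes, Fgf21 was at -2.30, Dbp at -1.68 and the mitochondrial carrier Slc25a30 at -1.51. Hsd3b1 was at 2.21 and Car3 at 1.16. At 36 h Hsd3b1 measured 64.5 and 93.3 and Car3 6765 and 6276, against 570.7 and 563.3 and 12270 and 17370 at 48 h.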

How the results depend on the processing

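The 315 calls against normal liver became 168 with array weights, 92 with only the 4 arrays compared in the fit, 178 without the arrays of low 5' signal, and 1157 at a 2-fold change without a test. Leaving out 1 array gave 114 (without normal replicate 2) to 471 (without normal replicate 1). Against 36 h the 63 calls became 1 with only the 4 arrays compared, 1 without the arrays of low 5' signal, 120 and 38 with 4 times and 0.25 times the added constant of 57 (228 and 14.25), and 733 at 2-fold; leaving out 1 array gave 1 to 80. Against 72 h the 0 calls became 1 with an intensity trend, 1 with the larger constant and 249 at 2-fold, and 0 with any array left out. With the replicate number as a block the calls were 326, 78 and 0; the labels do not say that the numbers pair arrays, and deviations of same-numbered arrays from their group means correlated at 0.527 between 48 h and normal liver, -0.165 with 36 h and 0.117 with 72 h. Of the 89 named genes that passed against normal liver all 89 kept their direction under every alternative run and 37 also passed under every one; Mcm2, Tagln2, Dgat2, Cyp39a1 and Lifr lost the call under the block. Some changes that had not passed turned sign: Alb to 0.058 and Cyp2e1 to 0.0087 with quantile normalization, and Cyp7a1 to 0.0339 with probe sets averaged by gene. With 2 arrays a group and no statement of separate pools, single arrays decide many calls: of 55 named rises 42, and of 34 named falls 4, passed with each of the 4 arrays left out in turn. Signal over background limits genes dim in normal liver, whose folds are lower bounds.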

Other observations

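Genes outside the lists also passed in limma, and those named here were chosen after their values were seen. Kpna2, an importin that carries proteins into the nucleus, measured 853 and 952.7 in normal liver and 4025 and 3734 at 48 h, a rise of 2.04 (SE 0.25, adjusted p = 0.000642). Hat1, a histone acetyltransferase that acts on new histones, rose by 1.65 (SE 0.23, adjusted p = 0.00211), Dtymk, which makes the DNA precursor dTDP, by 1.65 (SE 0.22, adjusted p = 0.00117), and Pclaf, a partner of Pcna, by 1.71 (SE 0.25, adjusted p = 0.00263). Each of these calls held without each of the 4 arrays in turn.

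Among falls, Cxcl9, a chemokine induced by interferon gamma, measured 342.2 and 340.8 in normal liver and was not above background at 48 h (41.3 and 34.4). The fold was at least 4.12 downward, with an adjusted p of 0.000329 that stayed under 0.05 without each array in turn. H2-Aa, of class II antigen presentation, fell by 1.38 (SE 0.24, adjusted p = 0.01), but not without 48 h replicate 1 (0.104) or normal replicate 2 (0.0587), and a second probe set did not pass. Hsd11b1, which regenerates active glucocorticoid, fell by 1.53 (SE 0.28, adjusted p = 0.0132), but not without 48 h replicate 1 (0.16) or normal replicate 2 (0.139).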
